A study of Saccharomyces cerevisiae with 8 samples.

Results

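The 30 genes of ergosterol synthesis and sterol regulation were followed through RNA sequencing of budding yeast (Saccharomyces cerevisiae) that had or had not gone through a transient excess of the RNA-binding protein Vts1. They were taken by gene name, with no threshold on a value, from the 6713 reading frames quantified, though the list was drawn up with earlier results of these data known: 9 genes of the mevalonate pathway, 3 from squalene to lanosterol, 12 from lanosterol to ergosterol, 2 for sterol esterification, 1 for sterol transport and 3 transcriptional regulators. The systematic name listed for ARE2 (YNR019C) was absent, so its row was taken as YNR019W, the name the RefSeq annotation pairs with ARE2. The other 29 names were found as written. All 30 passed the filter on low counts.

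All cultures were of the BY4741 background and were harvested from 50 ml in mid-exponential growth, at an optical density of about 0.6. Inductant 1 and inductant 2 were wild-type cells in which VTS1 had been overexpressed from a plasmid for 48 h, after which the plasmid was eliminated and the cells were passaged for several generations. They are independent inductions of the state called [SMAUG+]. The naive group was untreated wild type, and the vts1 deletion group was untreated and lacked VTS1. Each group had 2 biological replicates. The labels do not say how many strains stand behind the deletion, so the loss of VTS1 and any other difference of those strains cannot be told apart.

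Ergosterol is the main sterol of fungal membranes. Cells build it from acetyl-CoA through mevalonate, farnesyl pyrophosphate, squalene and lanosterol, and store surplus sterol as steryl esters. The paralogous zinc cluster factors Upc2 and Ecm22 bind a sterol response element in promoters of the pathway and activate it when sterol is scarce, and Rox1 and Mot3 repress sterol genes depending on haem and oxygen. Vts1 is the yeast Smaug protein. It binds RNA hairpins with a short loop and promotes decay of the bound transcripts.

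The element bound by Upc2 and Ecm22 and the hairpin bound by Vts1 are the sequence features by which those proteins could meet these genes, so the matches were read from the RefSeq R64 genome. The letters TCGTATA, searched on both strands in the 500 bases before the start codon, were present in 8 of the 30 sterol genes (26.7%) and in 419 of 5993 genes with a full window (6.99%). Capitals mark the match in each 29-base window, which is written 5′ to 3′ on the strand of the gene. A match is a description of the letters, not a measured binding site. The windows for ERG13 and ERG8 of the mevalonate pathway and for ERG2 and ERG28 of the late pathway are shown because transcripts of these carriers differed in the deletion. That for ERG3 is shown as a carrier whose transcript did not pass the test.
ERG13: cggaataagctTCGTATAtacaatagaaa
ERG8: atgcgtttttcTATACGAgatctaaaagg
ERG2: aaccacggcccTCGTATAagccgcaagga
ERG28: taacctaatctTATACGAactgaattaaa
ERG3: aaaattcaggcTCGTATAagtggcacaat

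These windows lie at chrXIII:20732-20760 (minus strand), chrXIII:712153-712181 (plus strand), chrXIII:667341-667369 (plus strand), chrV:238277-238305 (minus strand) and chrXII:253564-253592 (plus strand). In ERG8 and ERG28 the motif reads on the other strand, so its reverse complement stands in capitals. The match began 214 bases before the start codon in ERG13, 152 in ERG8, 185 in ERG2, 278 in ERG28 and 286 in ERG3. ERG13 and ERG3 each held a further match, and ERG1, ERG6 and ERG25 were the remaining carriers, ERG25 with 2 matches. None of UPC2, ECM22, SUT1, ARE1, ARE2 and HES1 held the letters in this window. The letters ATTGTTCTC, known from Rox1 sites, were found upstream of HMG2, NCP1 and ERG26, that is 3 of 30 sterol genes against 1.13% of all genes. The motif of Hap1, a direct repeat of CGG around a spaced TA, was found in 0 of 30 and in 0.35% of all genes. The Rox1 windows are shown because ROX1 itself and both NCP1 and ERG26 differed in the deletion, as described further on. HMG2 did not pass there, and a link between ROX1 and these genes was not tested.
NCP1: tcaacccgctATTGTTCTCcagccagctt
ERG26: tagatcgtttATTGTTCTCtcgagaaatg
HMG2: aaagttaatcGAGAACAATaagatgttgc

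They lie at chrVIII:190323-190351 (plus strand), chrVII:496642-496670 (minus strand) and chrXII:1032383-1032411 (plus strand), with the match 210, 158 and 234 bases before the start codon and on the other strand in HMG2.

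**Figure D1:**
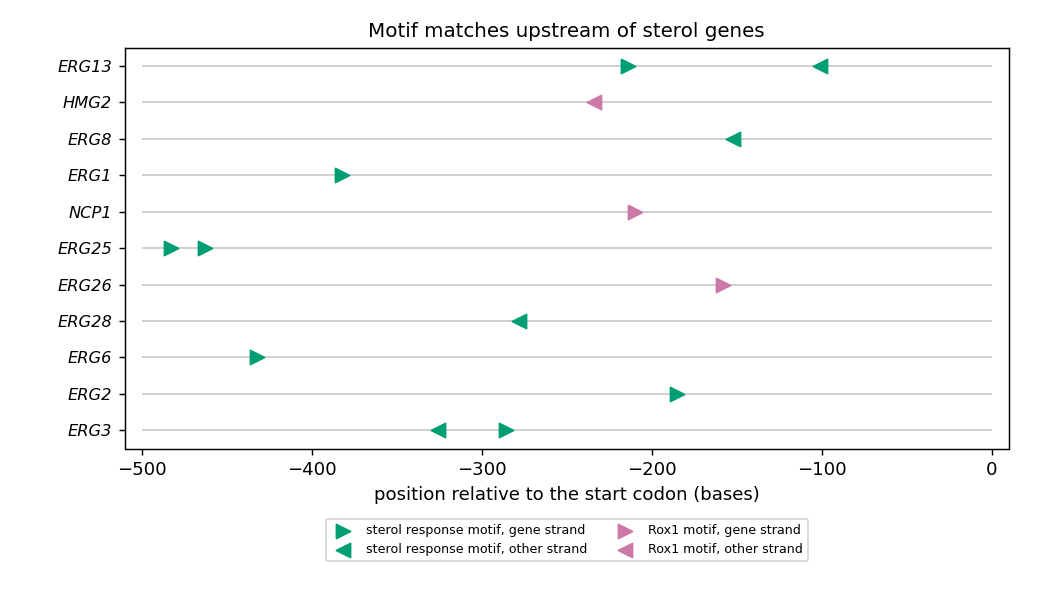
Position of motif matches in the 500 bases before the start codon (x axis, bases, 0 at the start codon) for the 11 sterol genes with a match (y axis). Triangles point right for a match on the gene's strand and left for the other strand. Green is TCGTATA, with matches between 101 and 483 bases before the start codon, and pink is ATTGTTCTC, with matches at 158 to 234.

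In the sense strand of coding sequences, a Smaug-type hairpin was counted where a loop of C-N-G-G and 0 to 3 more bases had a stem of 5 Watson-Crick pairs. It was found in 4 of the 30 sterol genes (13.3%) and in 422 of 5995 genes (7.04%). The median coding length was 1333.5 bases in the sterol genes and 1197 in all genes, and longer sequences give more chances of a match. The 4 hairpins are shown because they are the matches to this pattern in the coding sequences of the sterol genes; other hairpins that Vts1 could bind were not searched. Capitals mark the loop.
ERG1: tgctaCTGGTCtagca
ERG9: tccttCTGGCCCaagga
MVD1: tctgaCTGGCCtcaga
HES1: taaaaCTGGtttta

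They lie inside the coding exons at chrVII:848310-848325 (minus strand), chrVIII:485550-485566 (plus strand), chrXIV:702453-702468 (plus strand) and chrXV:782494-782507 (plus strand). ECM22 and ARE2, the sterol transcripts that fell furthest in the deletion, held no such hairpin in the coding sequence, and neither did UPC2. ERG13, ERG8 and ERG5, which rose there, held none either. UTRs were not searched.

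Depth was 18431474 to 27501966 estimated counts per library, and the lowest count of any sterol gene in a library was 94, for HES1. VTS1 checked the labels: it stood at 22.5 and 19.9 CPM (counts scaled by library size) in naive, 24.7 to 36.3 CPM in the inductants, and 0.0 and 0.0993 CPM in the deletion. Every inductant library was above both naive ones. VTS1 was called higher in inductant 2 than in naive (0.64 ± 0.15, 1.56-fold, adjusted p = 0.0248, edgeR), but not in inductant 1 (adjusted p = 0.394). The call was lost in 4 of the 8 fits that left out a library (either inductant 1 library, inductant 2 replicate 1 or naive replicate 2), with limma on TPM and with only the 2 groups in the fit. The part of this difference in the sterol results was not tested. The naive pair was the least alike, over the sterol genes and over all genes. The median absolute log2 difference between its replicates was 0.18 over the 30 genes, against 0.0571 in inductant 1, 0.0558 in inductant 2 and 0.0318 in the deletion. Over all genes tested it was 0.154 in naive, against 0.106, 0.11 and 0.0791. In the naive pair ERG10 and ERG11 were higher in replicate 1 by 0.42 and 0.38 (log2), and ARE1 and ARE2 were lower there by 0.35 and 0.26. All CPM values are scaled with the trimmed mean of M-values (TMM). Calls rest on edgeR's quasi-likelihood test, at a Benjamini-Hochberg adjusted p under 0.05 over 6230 genes. Levels are relative to a library's total RNA, so fewer expressing cells and less RNA per cell cannot be told apart. The value after ± is the standard error (SE) of a log2 fold change.

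Per length, the pathway spanned a wide range of levels. ERG25, an oxidase that removes methyl groups from the sterol ring, had the highest mean over the 8 libraries at 573 TPM (a level scaled by transcript length). It was followed by ERG20, farnesyl pyrophosphate synthase, at 526 TPM, ERG1, squalene epoxidase, at 477 TPM, and ERG11, the demethylase that azole drugs inhibit, at 454 TPM. The HMG-CoA reductase genes HMG1 and HMG2, whose products catalyse the step that limits the pathway's flux, stood far lower at 60.8 and 53.7 TPM. Among the regulators UPC2 averaged 54.4 TPM, ECM22 22.4 TPM and SUT1 18.3 TPM. HES1, an oxysterol-binding protein gene, was the lowest at 4.70 TPM.

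**Figure D2:**
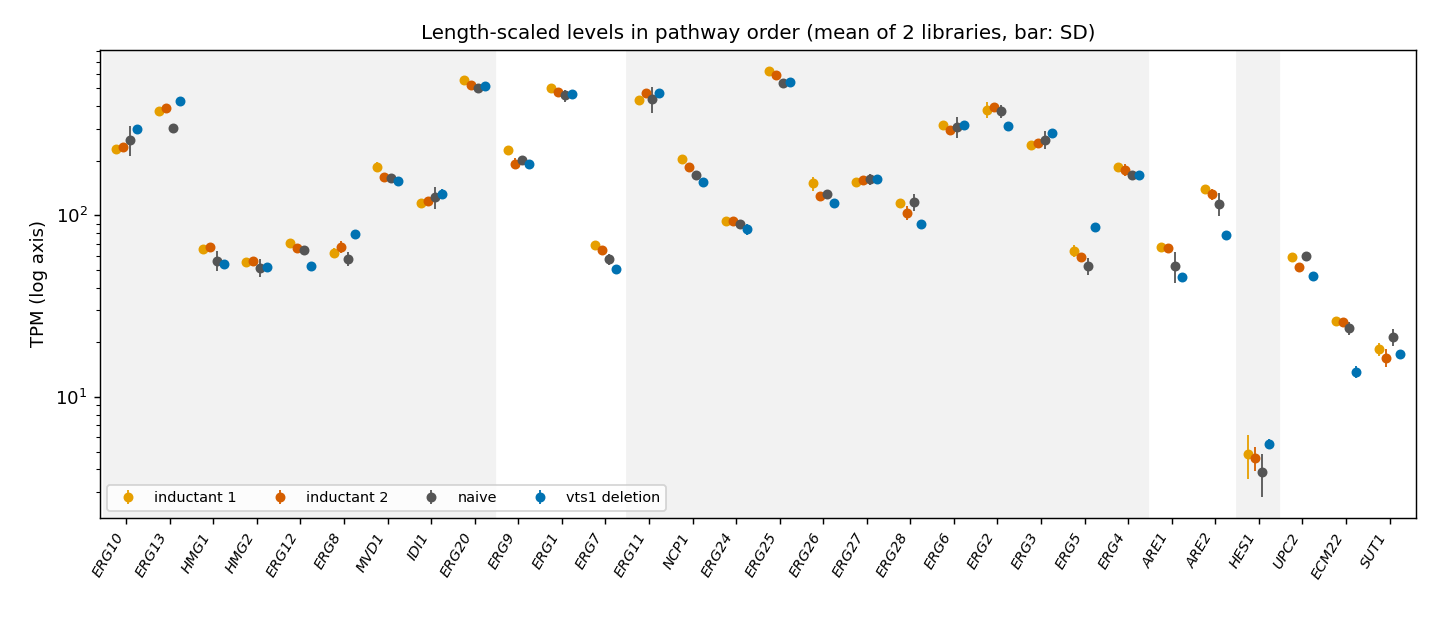
TPM on a log axis for the 30 sterol genes in pathway order. Points are means of the 2 libraries of a group and bars are SD, with shading that separates the roles. Levels run from ERG25 at a mean of 573 TPM to HES1 at 4.70 TPM, and ECM22 and ARE2 show the deletion below the other groups.

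The spread between libraries was read for the 30 sterol genes only. The ratio of the highest to the lowest CPM over the 8 libraries was smallest for ERG20 at 1.10 and ERG1 at 1.15. It was widest for ECM22 at 2.10, ARE2 at 1.84, HES1 at 1.77 and ERG5 at 1.75. The summed TPM of the 30 genes lay between 5224 (naive replicate 2) and 5843 (inductant 1 replicate 2).

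**Figure D3:**
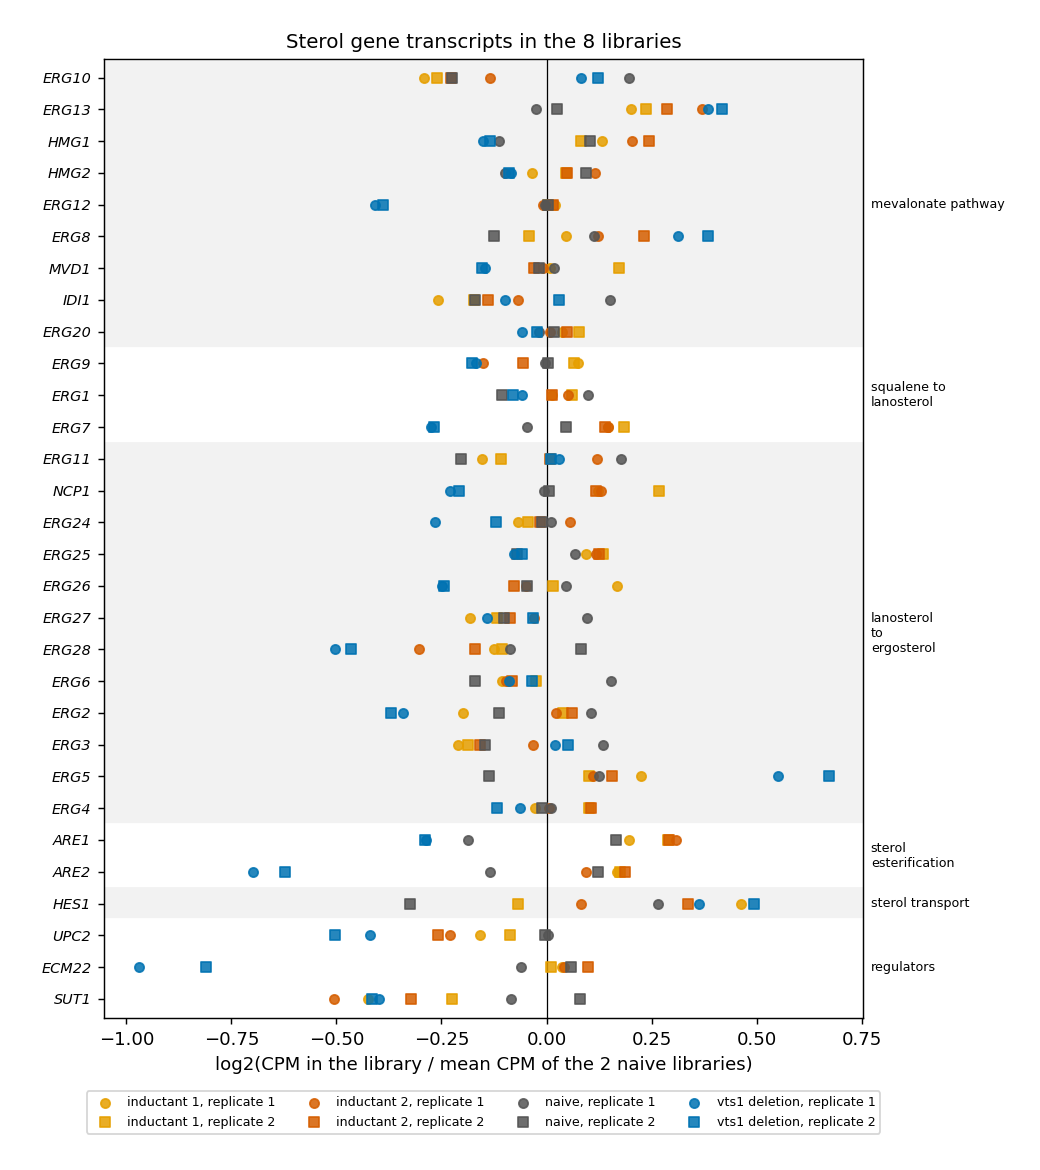
Level of each sterol gene in each library as log2 of its CPM over the mean CPM of the naive pair (x axis), with genes by role (y axis). Circles are replicate 1 and squares replicate 2. The deletion libraries (blue) stand apart to the left for ECM22, ARE2, ERG28 and ERG12 and to the right for ERG5, while the naive libraries (grey) are spread for ERG10, ERG11 and ARE1.

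The first comparison asked whether cells carrying the induced state differed from naive cells. Of the 30 sterol genes, 1 rose and 0 fell in the inductants (3.33%), against 8.57% of all genes called, of which 2.97% rose and 5.6% fell. The gene was ERG13, HMG-CoA synthase, which catalyses the step before the HMG-CoA reductases. The median log2 fold change over the 30 genes was 0.04, beside -0.01 over all genes, and single values ran from -0.37 to 0.27. At an unadjusted p under 0.05 there were 8 sterol genes, and 26.5% of all genes.

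For ERG13 the inductant 1 libraries held 498 and 511 CPM, those of inductant 2 561 and 529 CPM, the naive pair 426 and 441 CPM, and the deletion pair 566 and 579 CPM. The inductant and deletion libraries were all above both naive libraries. The rise in the inductants was 0.27 ± 0.06 on the log2 scale, or 1.21-fold (adjusted p = 0.0126, edgeR). Without inductant 2 replicate 1 it missed the threshold (adjusted p = 0.0511).

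The call count was sensitive to the naive pair. Without naive replicate 2, 10 sterol genes were called: ERG13, HMG1, ERG7, ARE1 and ARE2 higher and ERG10, IDI1, ERG11, ERG6 and ERG3 lower. Over all genes the calls went from 534 to 1221 in that fit. Without naive replicate 1, only ERG13 was called, and without inductant 2 replicate 1 none was. The lower genes are among those that were high in naive replicate 1, such as ERG10 at 338 CPM in that library and 252 CPM in naive replicate 2, with 241 to 269 CPM in the inductants.

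The regulators did not pass in the inductants. UPC2 read 152 and 159.9 CPM in inductant 1 libraries, 145 and 142 CPM in those of inductant 2, and 170.4 and 169 CPM in the naive pair, so that every inductant library lay below both naive libraries. Its log2 fold change was -0.18 ± 0.06 (adjusted p = 0.0723, edgeR). SUT1, a regulator known for sterol uptake without oxygen, was at 12.7 and 14.6 CPM, 11.98 and 13.6 CPM, and 16.04 and 17.99 CPM in the same order, again without overlap (-0.37 ± 0.11, adjusted p = 0.0705, edgeR). ECM22 was at 60.4 to 64.2 CPM in the inductants and at 57.5 and 62.4 CPM in naive, with overlapping libraries (0.05 ± 0.07, adjusted p = 0.731, edgeR). ARE1 was higher in every inductant library than in either naive library but did not pass (0.27 ± 0.09, adjusted p = 0.0799, edgeR); DESeq2 called it. In all, 5 sterol genes had every inductant library above both naive ones and 3 had every one below, beside 29.8% of all genes without overlap, 14.9% in each direction.

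Each induction was also set against naive alone. In inductant 1 no sterol gene was called by edgeR (7 at an unadjusted p under 0.05, where 22.1% of all genes stood), against 4.4% of all genes (1.2% higher and 3.19% lower). DESeq2 called ERG13. Without naive replicate 2 edgeR called 10 sterol genes, and its calls over all genes went from 274 to 1048. In inductant 2, ERG13 rose (0.33 ± 0.06, adjusted p = 0.00926) and UPC2 fell (-0.24 ± 0.07, adjusted p = 0.0448), that is 2 of 30 against 9.04% of all genes (3.24% higher and 5.79% lower). The UPC2 call was lost in 6 of the 8 fits that left out a library, all but those without a naive library, and the ERG13 call without inductant 2 replicate 1. With only these 2 groups in the fit neither gene passed, and UPC2 was also lost with DESeq2 and with limma on TPM. These comparisons share the naive libraries.

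Between the inductions no sterol gene was called (1 at an unadjusted p under 0.05, where 15.5% of all genes stood, and 0 by DESeq2), against 0.449% of all genes (0.401% higher and 0.0482% lower in inductant 1). The log2 differences of inductant 1 over inductant 2 ran from -0.19 for ERG11 to 0.17 for ERG9. ERG9, squalene synthase, stood at 272 and 270.0 CPM in inductant 1 and at 233 and 248 CPM in inductant 2. That difference was 0.17 ± 0.06 and did not pass (adjusted p = 0.236, edgeR).

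The second comparison asked what differed without VTS1. In the deletion 3 of 30 sterol genes rose and 10 fell (43.3%), against 26.3% of all genes, of which 11.7% rose and 14.6% fell. The falls took in the 3 regulators, ARE2 and 6 genes of the synthesis pathway, while ERG13, ERG8 and ERG5 rose. The median log2 fold change was -0.12 over the 30 genes and 0.00 over all genes. The count was 6 without deletion replicate 1 and 7 without deletion replicate 2, and 8 with limma on TPM. Over all genes the calls went from 1637 to 680, 714 and 1444 in the same fits. The calls of 6 genes, ERG13, ERG12, ERG5, ARE2, UPC2 and ECM22, held in every alternative tried.

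Among the regulators, ECM22 (YLR228C, chrXII:600019-602463) fell furthest. Its naive libraries held 57.5 and 62.4 CPM and its deletion libraries 30.6 and 34.2 CPM. The 6 libraries with VTS1 lay between 57.5 and 64.2 CPM, well above the deletion pair. The fall was -0.89 ± 0.09 on the log2 scale, to 0.54 of the naive level (adjusted p = 6.08e-05, edgeR).

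Its paralog UPC2 (YDR213W, chrIV:889751-892492) held 127 and 119.9 CPM in the deletion libraries. The deletion pair was below all 6 other libraries. The log2 fold change of UPC2 was -0.46 ± 0.07 (adjusted p = 0.000652, edgeR). SUT1 was at 12.9 and 12.8 CPM in the deletion, below both naive libraries but within the range of the inductants. Its fall of 0.41 ± 0.13 (adjusted p = 0.0437, edgeR) was kept only without naive replicate 1 among the 8 fits that left out a library, and was lost with DESeq2, with limma on TPM and with only the 2 groups in the fit.

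**Figure D4:**
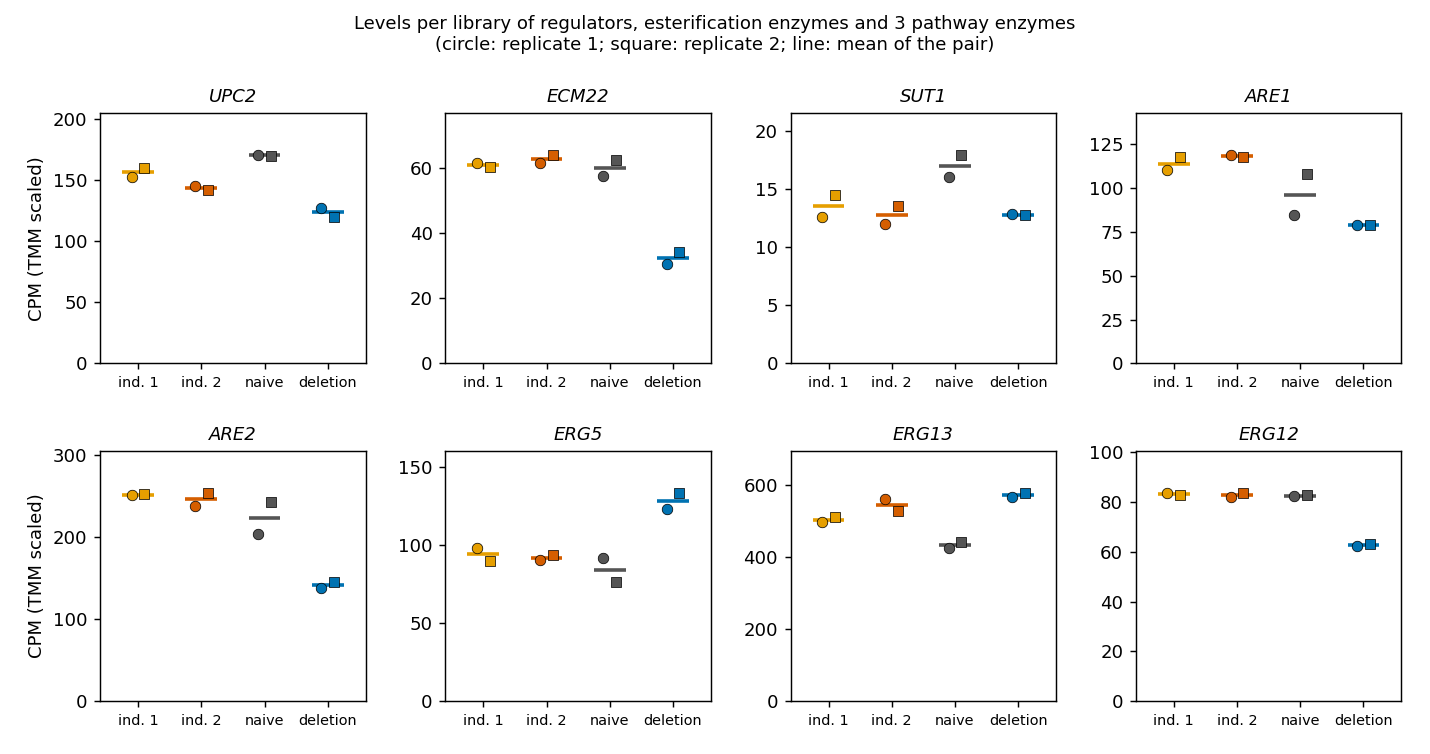
CPM scaled with TMM (y axis, from 0) in the 8 libraries for the regulators UPC2, ECM22 and SUT1, the sterol acyltransferases ARE1 and ARE2, and ERG5, ERG13 and ERG12. Circles are replicate 1, squares replicate 2 and lines the mean of the pair (ind. 1 and ind. 2 are inductants 1 and 2). ECM22 is at 30.6 and 34.2 CPM in the deletion and at 57.5 CPM or more elsewhere, and ERG13 is lowest in the naive pair.

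The sterol acyltransferases move surplus sterol into steryl esters, with Are2 known as the major enzyme when oxygen is present. ARE2 (YNR019W, chrXIV:665339-667267) held 204 and 243 CPM in the naive pair, 251, 252, 238 and 254 CPM in the 4 inductant libraries, and 138 and 145 CPM in the deletion pair. The deletion pair was below the other 6 libraries, and ARE2 fell by 0.66 ± 0.09 (adjusted p = 0.000364, edgeR). ARE1 held 84.6 and 108 CPM in the naive pair and 78.9 and 78.7 CPM in the deletion pair, and with -0.29 ± 0.10 it did not pass (adjusted p = 0.0551, edgeR). It passed as a fall with DESeq2. ARE1 overlaps YCR050C in the annotation and its counts were not whole in any library, so its exact level is uncertain.

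In the mevalonate pathway 2 of 9 genes rose, 1 fell and 6 did not pass in the deletion. ERG13 rose by 0.40 ± 0.06 (adjusted p = 0.00116, edgeR). ERG8, phosphomevalonate kinase, held 81.5 and 69.1 CPM in the naive pair and 93.6 and 98.4 CPM in the deletion pair (0.35 ± 0.09, adjusted p = 0.0149, edgeR), a call lost without naive replicate 2 or either deletion library. ERG12, mevalonate kinase, acts just before ERG8 and went the other way. The naive libraries held 82.4 and 82.7 CPM, the inductant libraries 82.0 to 83.7 CPM, and the deletion libraries 62.2 and 63.0 CPM, with no overlap (-0.40 ± 0.07, adjusted p = 0.00154, edgeR). HMG1, HMG2, MVD1, IDI1, ERG10 and ERG20 had log2 fold changes from -0.15 to 0.10 and did not pass.

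Of the 3 genes from squalene to lanosterol, ERG7, lanosterol synthase, fell. The naive pair held 124 and 132 CPM and each deletion library 106 CPM (-0.27 ± 0.07, adjusted p = 0.0119, edgeR), a call lost without either deletion library, with limma on TPM and with only the 2 groups in the fit. ERG9 and ERG1 did not pass (-0.17 and -0.07).

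Of the 12 genes from lanosterol to ergosterol, 1 rose and 4 fell in the deletion. ERG5, the P450 desaturase of the sterol side chain, held 91.4 and 76.3 CPM in the naive pair, 98.04, 89.99, 90.5 and 93.5 CPM in the inductant libraries, and 123 and 134 CPM in the deletion pair. Both deletion libraries were above all others, and ERG5 rose by 0.61 ± 0.09, or 1.53-fold (adjusted p = 0.000858, edgeR). ERG28, a scaffold protein of the sterol enzymes in the endoplasmic reticulum, held 33.0 and 37.1 CPM in the naive pair and 24.7 and 25.4 CPM in the deletion pair (-0.49 ± 0.10, adjusted p = 0.00568, edgeR), lost without deletion replicate 1.

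ERG2, sterol isomerase, held 218 and 188 CPM in the naive pair and 160.1 and 157 CPM in the deletion pair (-0.36 ± 0.09, adjusted p = 0.0178, edgeR). The call was lost without naive replicate 1 or either deletion library and with limma on TPM. NCP1, the reductase that supplies electrons to the P450 enzymes Erg11 and Erg5, went from 347 and 350.0 CPM in the naive pair to 297 and 302 CPM (-0.22 ± 0.07, adjusted p = 0.0346, edgeR). ERG26, a sterol dehydrogenase, went from 126 ± 5.71 CPM (SD, n = 2) in the naive pair to 106 CPM in each deletion library, without overlap (-0.25 ± 0.07, adjusted p = 0.03, edgeR). The calls of NCP1 and ERG26 were lost with limma on TPM and with only the 2 groups in the fit. They were also lost without either deletion library, without either inductant 2 library, and without naive replicate 2 for NCP1 and naive replicate 1 for ERG26.

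The other 7 genes, ERG11, ERG24, ERG25, ERG27, ERG6, ERG3 and ERG4, did not pass, with log2 fold changes from -0.19 for ERG24 to 0.04 for ERG3. ERG27 counts were not whole in any library, so its exact level is uncertain. HES1 did not pass (0.44 ± 0.26, adjusted p = 0.243, edgeR). In 17 sterol genes both deletion libraries were below both naive libraries and in 4 both were above, while 64.4% of all genes had no overlap in this comparison (32.4% higher and 32% lower).

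**Figure D5:**
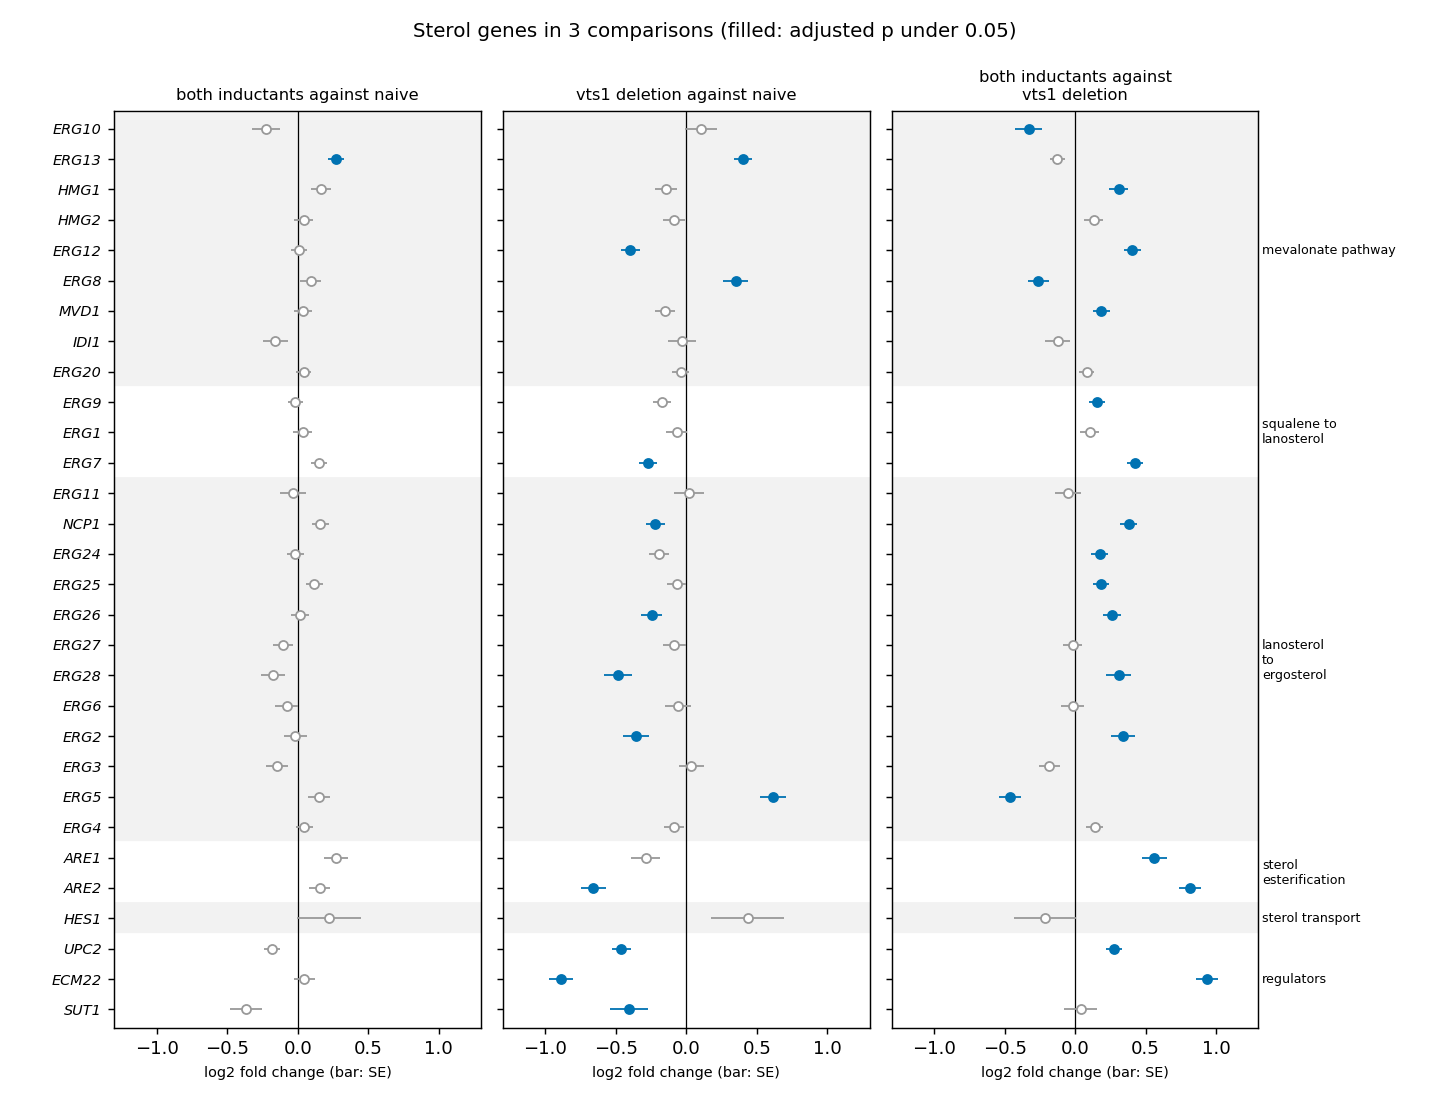
Log2 fold change (x axis) with SE bars for the 30 sterol genes (y axis, by role) in 3 comparisons. Filled points had an adjusted p under 0.05: 1 gene for the inductants against naive, 13 for the deletion against naive and 18 for the inductants against the deletion. ECM22 moves furthest in the right-hand and middle panels, at 0.94 and -0.89.

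The third comparison, of both inductants with the deletion, did not use the naive libraries as a group. It gave 15 sterol genes higher and 3 lower in the inductants (60%), against 37.6% of all genes, of which 18.7% were higher and 19% lower. The median log2 fold change was 0.15 over the 30 genes and -0.02 over all genes. In 19 sterol genes every inductant library was above both deletion libraries and in 5 every one was below, beside 55.3% of all genes without overlap (27% higher and 28.4% lower). The count of calls was 11 without inductant 1 replicate 2, 8 without deletion replicate 1 and 7 without deletion replicate 2, while over all genes it went from 2344 to 1817, 1162 and 1115. The 7 calls that held in every alternative were ERG12, ERG7, NCP1, ERG5, ARE1, ARE2 and ECM22.

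ECM22 was 1.91-fold higher in the inductants than in the deletion (0.94 ± 0.08, adjusted p = 1.20e-05, edgeR). ARE2 was 1.76-fold higher (0.82 ± 0.08, adjusted p = 2.65e-05, edgeR). ARE1 was at 110.2, 118, 119 and 118 CPM in the inductants, all above the deletion pair, and was 1.47-fold higher (0.56 ± 0.09, adjusted p = 0.000775, edgeR). UPC2 was also higher (0.28 ± 0.06, adjusted p = 0.00385, edgeR), a call lost without deletion replicate 2, while SUT1 was not (0.04 ± 0.12, adjusted p = 0.814, edgeR).

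Enzyme genes of every stage of the pathway were among those higher in the inductants. ERG7 held 141, 145, 141 and 141 CPM in the inductant libraries, all above the deletion pair, and differed by 0.43 ± 0.06 (adjusted p = 0.000269, edgeR). NCP1 held 379, 419, 381 and 378 CPM there and differed by 0.38 ± 0.06 (adjusted p = 0.000683, edgeR). ERG12 differed by 0.41 ± 0.06 (adjusted p = 0.000389, edgeR). ERG2, HMG1, ERG28 and ERG26 were higher by 0.34, 0.31, 0.31 and 0.26, calls that were lost without either deletion library, and that of ERG28 also without inductant 1 replicate 2 or inductant 2 replicate 2. For HMG1, 203, 197, 214 and 219.8 CPM in the inductant libraries stood against 167 and 169 CPM in the deletion pair. ERG2 held 177, 208, 206 and 212 CPM in the inductant libraries, ERG28 32.1, 32.5, 28.4 and 31.1 CPM, and ERG26 142, 127, 122 and 119 CPM. All 3 lay above their deletion pairs. MVD1, ERG25, ERG24 and ERG9 were higher by 0.16 to 0.19, each lost without either deletion library and without at least 3 of the 4 inductant libraries in turn. MVD1, which makes isopentenyl pyrophosphate, held 176 to 203 CPM in the inductant libraries and 163 and 162 CPM in the deletion pair. ERG25 held 473 to 486 CPM against 420.0 and 426 CPM, ERG24, a sterol reductase, 108 to 118 CPM against 94.3 and 104 CPM, and ERG9 233 to 272 CPM against 229.9 and 228 CPM. The groups did not overlap in any of these 4 genes. The calls of ERG9 and ERG24 were also lost with DESeq2, with limma on TPM and without the filter on low counts. That of MVD1 was lost with limma on TPM and without the filter, while that of ERG25 held in these fits.

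The 3 lower genes were ERG5 (-0.46 ± 0.08), ERG10 (-0.33 ± 0.10) and ERG8 (-0.26 ± 0.08). ERG10, acetoacetyl-CoA thiolase at the entry of the pathway, held 241, 246, 269 and 252 CPM in the inductant libraries and 312 and 321 CPM in the deletion pair. ERG8 held 77.8, 73.2, 82.0 and 88.4 CPM in the inductant libraries, all below its deletion pair. Both calls were lost without either deletion library, that of ERG10 also without either inductant 1 library or inductant 2 replicate 2, and that of ERG8 without inductant 1 replicate 2 or inductant 2 replicate 1. ERG13, which was above naive in both, did not differ past the threshold (-0.13 ± 0.05, adjusted p = 0.0905, edgeR).

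Carriers of the sterol response letters did not share a direction in the deletion. Of the 8 carriers 2 rose (ERG13 and ERG8), 2 fell (ERG2 and ERG28) and 4 did not pass, with a median log2 fold change of -0.06. Of the 22 other sterol genes 1 rose and 8 fell, with a median of -0.16. Of the 3 genes with the Rox1 letters 0 rose and 2 fell (NCP1 and ERG26, calls lost in several fits as given above), beside 3 that rose and 8 that fell of the 27 without them and 14.6% of all genes that fell. Of the 4 genes with a Smaug-type hairpin, 0 were called in the deletion by edgeR and 0 by DESeq2, with 1 (ERG9) at an unadjusted p under 0.05. Of the 26 without one 3 rose and 10 fell, and 26.3% of all genes were called. In the inductants against the deletion 2 of the 4 (MVD1 and ERG9, calls that were lost in most fits with a library left out) were higher and 0 lower, beside 13 higher and 3 lower of the 26 and 37.6% of all genes called.

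A further 60 genes that border the pathway were read as 7 lists. In the deletion against naive, where 11.7% of all genes rose and 14.6% fell, they gave 1 rise and 1 fall among 7 oxygen and haem regulators, 0 and 3 among 10 uptake and anaerobic cell wall genes, 1 and 2 among 14 sterol transfer protein genes, 0 and 0 among 5 genes of steryl ester hydrolysis and sterol acetylation, 1 and 2 among 11 partners of sterol enzymes, 2 and 0 among 10 genes of other isoprenoid branches, and 0 and 0 among 3 of fatty acid desaturation. Among the 60, inductant 1 against naive gave 0 rises and 4 falls, beside 1.2% and 3.19% of all genes. Inductant 2 against naive gave 1 and 5, beside 3.24% and 5.79%. The calls for each inductant alone were not followed gene by gene. In both inductants against naive 0 of the 60 rose and 5 fell, beside the 2.97% and 5.6% of all genes. OLE1, the essential fatty acid desaturase of yeast, held 1597 and 1184 CPM in the naive pair and 739.7, 847, 915 and 792 CPM in the inductant libraries, with every inductant library below both naive ones. It fell by 0.76 ± 0.12 (adjusted p = 0.00838, edgeR). HAP4, the activator subunit of the haem-linked HAP complex, fell by 1.06 ± 0.08 (adjusted p = 5.62e-05, edgeR). OSH2, TGL1 and TIR1, a sterol-binding protein, a steryl ester hydrolase and a cell wall mannoprotein, fell by 0.30, 0.28 and 0.59, and each call was lost without either inductant 1 library, without inductant 2 replicate 1 and with limma on TPM. The TGL1 and TIR1 calls were each kept in 1 of the 8 fits that left out a library, without naive replicate 1 for TGL1 and without naive replicate 2 for TIR1, and were lost with only the groups compared.

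Over the 60 genes 5 rose and 8 fell in the deletion. ROX1, the repressor of anaerobic genes, held 29.6 and 26.5 CPM in the naive pair, 20.0, 23.3, 25.8 and 24.8 CPM in the inductant libraries, and 54.9 and 46.7 CPM in the deletion pair. It rose by 0.86 ± 0.12 (adjusted p = 0.000479, edgeR) and was the only call among the 7 oxygen and haem regulators besides HAP4, which fell by 1.24 ± 0.10 (adjusted p = 1.46e-05, edgeR). HAP1, whose reading frame is interrupted by a Ty1 element in this strain background, did not pass. The uptake genes gave 3 falls of 10: the sterol transporter gene AUS1 by 0.47 ± 0.08 (adjusted p = 0.00143, edgeR), from 71.6 and 72.7 CPM to 53.4 and 50.9 CPM, and the anaerobic mannoprotein genes DAN4 (-0.49 ± 0.14) and DAN1 (-2.01 ± 0.56). DAN1 stood under 2 CPM in all 8 libraries. It held 1.76 and 0.977 CPM in the naive pair and 0.272 and 0.397 CPM in the deletion pair. Inductant 1 was lower still, at 0.151 and 0.231 CPM, and inductant 2 held 1.46 and 0.844 CPM. In both inductants against naive DAN1 did not pass (-1.50 ± 0.45, adjusted p = 0.0658, edgeR). The DAN1 and DAN4 calls in the deletion were lost with limma on TPM and without deletion replicate 2. That of DAN1 was also lost without naive replicate 1 or deletion replicate 1. That of DAN4 was also lost without naive replicate 2 and with only the groups compared.

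CYB5, the cytochrome that passes electrons to sterol enzymes, rose in the deletion by 1.10 ± 0.23 (adjusted p = 0.00619, edgeR). The naive pair held 8.19 and 4.76 CPM and the deletion pair 14.9 and 12.7 CPM, and the call was lost without deletion replicate 1. In the inductants against the deletion 7 of the 60 were higher and 14 lower, beside 18.7% and 19% of all genes, with ROX1 at -1.12 ± 0.10, CYB5 at -1.29 ± 0.20, AUS1 at 0.55 ± 0.07 and DAN4 at 0.75 ± 0.12, all 4 called in every alternative.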

How the data were processed

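RNA was measured in 8 libraries of 4 groups, grouped by sample title. Per the labels' protocols, rRNA was removed with Ribo-Zero. Per the submitters' processing notes, the authors used kallisto and genome build R64 (the sources used here give neither version, read layout nor use of strand). The deposited estimated counts (expected counts, 83.2% to 84.1% whole within 1e-06) and the deposited TPM, per the file headers, come with gene lengths of which 99.97% are multiples of 3, that is coding lengths, so UTR reads were not counted and overlapping genes cannot be told apart. Symbols and sequences came from RefSeq R64, the same build, which named 6026 of 6713 rows.

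Counts were rounded and tested in edgeR 4.0.16 (R 4.3.3): TMM (factors 0.946 to 1.093), filterByExpr (6230 genes kept), robust quasi-likelihood fit, 1 mean per group, 4 residual degrees of freedom, biological coefficient of variation 0.0956. P-values are two-sided, and an SE is the log2 fold change over the root of its F statistic. The p-values rest on the spread between the 2 cultures of a group, pooled over the groups in the fit and partly shared across genes. The spread between the independent inductions does not enter the test of both inductants together.

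Alternatives were relative log expression (RLE) scaling, no filter, DESeq2 1.42.0, limma 3.58.1 on log2(TPM + 0.5), only the groups compared, a replicate block, and leaving out each library. Members and lists were chosen with earlier results of these data known. All 30 members are accounted for. Border genes are named where called in the deletion against naive or in a comparison of both inductants together. LAM1 and YSP1, names of the same gene, were counted once.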

Additional observations from a re-analysis of the deposited data

How the results depend on the processing

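The numbers of sterol genes called are given per comparison. With 1 library left out they ranged from 0 to 10 for the inductants against naive, 6 to 15 for the deletion against naive, 7 to 21 for the inductants against the deletion, 0 to 10 for inductant 1 and 0 to 8 for inductant 2 against naive, and stayed at 0 between the inductions. In a fit without a library of a pair, the lone library was assumed to vary like the other groups. DESeq2 gave 2 for the inductants against naive and 1 for each inductant alone. Limma on log2(TPM + 0.5) gave 8 for the deletion against naive and 1 for inductant 2. With only the groups compared inductant 2 gave 0, and the deletion against naive gave 3 higher and 6 lower (1207 calls over all genes). The inductants against the deletion gave 13 higher and 3 lower with DESeq2, and 12 and 3 with limma on TPM. This comparison gave 12 and 3 without the filter, and 16 and 5 with only the groups compared. Over all genes it gave 2193, 2115, 2342 and 2752 calls in the same order, beside 2344 in the main fit. Same-numbered replicates did not deviate together (correlations of -0.113 to 0.112 over the 6 pairs of groups), and the replicate block gave 2 for the inductants against naive, adding ARE1, and 14 for the deletion, adding ARE1. RLE scaling gave the main counts in all 6 comparisons. Over all genes, the inductants against naive gave 534 calls, 248 with limma on TPM, 340 with only the groups compared and 1221 without naive replicate 2. Sterol genes without a call were followed gene by gene only for the 3 regulators, but some passed without a naive library. ERG11 was called higher in the deletion and in inductant 2 without naive replicate 1. It was called lower in both inductants together and in inductant 1 without naive replicate 2. In the deletion against naive, ERG10 was also called higher and HMG1 and ARE1 lower without naive replicate 1. ERG6 was called lower there without naive replicate 2. Among the called genes and the regulators followed, 3 signs turned, all in results without a call: ECM22 in the inductants against naive ran from -0.016 (without naive replicate 1) to 0.107, and SUT1 in the inductants against the deletion ran from -0.027 (without inductant 1 replicate 2), with -0.023 without inductant 2 replicate 2, to 0.0757, over the fits that left out a library. The causes were not tested.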

Other observations

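Genes that carry sterols between membranes and genes of other isoprenoid branches were read with the bordering lists. In the deletion against naive, LAM1, a protein of the family that moves sterol at membrane contact sites, rose by 0.34 ± 0.08 (adjusted p = 0.00882, edgeR) and its relative LAM5 fell by 0.36 ± 0.10 (adjusted p = 0.0209, edgeR). OSH2 fell by 0.26 ± 0.08 (adjusted p = 0.0276, edgeR), and 11 of the 14 transfer protein genes did not pass. LAM1 was lost without deletion replicate 2. LAM5 was lost without naive replicate 2 or either deletion library and with limma on TPM. OSH2 was lost in 5 of the 8 fits that left out a library, with limma on TPM and with only the groups compared. In both inductants against naive LAM1 and LAM5 moved the same way without passing (0.22 ± 0.07 and -0.28 ± 0.08, adjusted p = 0.0713 and 0.067, edgeR). LAM1 held 108 and 102 CPM in inductant 2, beside 102 and 106 CPM in the deletion pair. It held 90.9 and 83.3 CPM in inductant 1 and 78.3 and 86.0 CPM in naive.

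Of 10 genes that use isoprenoids outside sterol synthesis, 2 rose in the deletion, beside 11.7% of all genes. COX10, which adds a farnesyl chain to haem for cytochrome oxidase, rose by 0.55 ± 0.17 (adjusted p = 0.035, edgeR), and COQ1, which builds the ubiquinone side chain, by 0.25 ± 0.08 (adjusted p = 0.0424, edgeR). COQ1 was lost with DESeq2 and with only the groups compared. Each of the 2 genes was lost in 5 of the 8 fits that left out a library, either deletion library among them. Against the inductants both were higher in the deletion as well: COX10 differed by -0.68 ± 0.14 (inductants minus deletion, adjusted p = 0.00433, edgeR) in every alternative, and COQ1 by -0.30 ± 0.07 (adjusted p = 0.00616, edgeR), lost without deletion replicate 2.

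Among partners of sterol enzymes, NSG1, which stabilises the reductase Hmg2, and SSM4, a ubiquitin ligase that acts on Erg1, were lower in the deletion than in naive (-0.24 each, adjusted p = 0.0463 and 0.0215, edgeR) and than in the inductants (0.26 and 0.24, inductants minus deletion). NSG1 against naive was lost in 7 of the 8 fits that left out a library, and SSM4 without either deletion library in both comparisons. Against naive, NSG1 and SSM4 were also lost with limma on TPM and with only the groups compared, and NSG1 with DESeq2. TIR1 was also lower in the inductants than in the deletion, in every alternative (-0.86 ± 0.15, adjusted p = 0.00159, edgeR). On the lower side, the remaining calls of the inductants against the deletion were OSH6 (-0.46), TGL1 (-0.32), OLE1 (-0.36), NPC2 (-0.22) and LAM6 (-0.26). NSG2 (-0.36), DAP1 (-0.59), SEC59 (-0.41) and SRT1 (-1.52) were also lower. SRT1 stood at only 1.99 and 1.14 CPM in the deletion pair and at 0.397 to 0.732 CPM in the inductant libraries. On the higher side were YSP2 (0.19), YEH1 (0.41) and CDC43 (0.21). Each of these 12 was lost without deletion replicate 1, deletion replicate 2 or both.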
